A study of Homo sapiens with 2 samples.

Results

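Interferon-stimulated genes are the genes that cells switch on when an interferon binds its receptor, and 39 of them, chosen by name, are described here among the 60623 genes counted in the human acute myeloid leukaemia line OCI-AML3. All 39 were found in the files by gene symbol, with RIGI under its present symbol in place of DDX58, and each had a summed count of at least 310. OCI-AML3 has myelomonocytic features and a mutation in NPM1, and the labels give its genotype as WT and its tissue as bone marrow. There was 1 culture in 50 nM omipalisib (GSK2126458), an inhibitor of the phosphoinositide 3-kinases and of mTOR, and 1 in its vehicle DMSO, both for 24 h, in medium with serum. The labels name no interferon treatment.

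Type I interferons signal through the receptor chains IFNAR1 and IFNAR2 and the kinases JAK1 and TYK2, which phosphorylate STAT proteins. A complex that holds STAT2 and IRF9 then binds the interferon-stimulated response element in promoters and switches on antiviral genes. Many of the products sense viral RNA, block its translation or degrade it, and some, such as IRF7 and the RNA sensors, feed back to raise interferon output further. Myeloid cells keep a low level of this program without infection.

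Most of the 39 genes had lower counts in the omipalisib library, by moderate amounts. The log2 ratio of omipalisib over DMSO was taken on counts scaled between libraries, and its 95% interval covers counting error only. A gene is called lower or higher where this interval excludes 0. Of the 39 members, 34 were lower (87.2%), against 28.6% of the 15660 genes that had 20 or more counts over both libraries and 39.3% of the 10385 genes that had 310 or more. Higher calls went to 2 members, STAT2 and RSAD2, against 26.1% and 29.0% of these genes, and 3 members had intervals that included 0. The median log2 ratio of the members was −0.37, a 1.30-fold lower level. It was 0.0029 over all 15660 genes and −0.042 over the 10385 genes with 310 or more counts. By size, 10 members were at least 1.5-fold lower, against 4.76% of the wider and 3.92% of the narrower set of genes. None was at least 2-fold lower, a size that 1.29% and 0.279% reached. None was at least 1.5-fold higher, against 9.58% and 5.75%, or 2-fold higher, against 4.02% and 1.42%. The members' ratios ran from −0.94 for IFIT1 to 0.17 for RSAD2. The list was chosen with earlier results of these data known, and the set with 310 or more counts after values were seen.

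**Figure D1:**
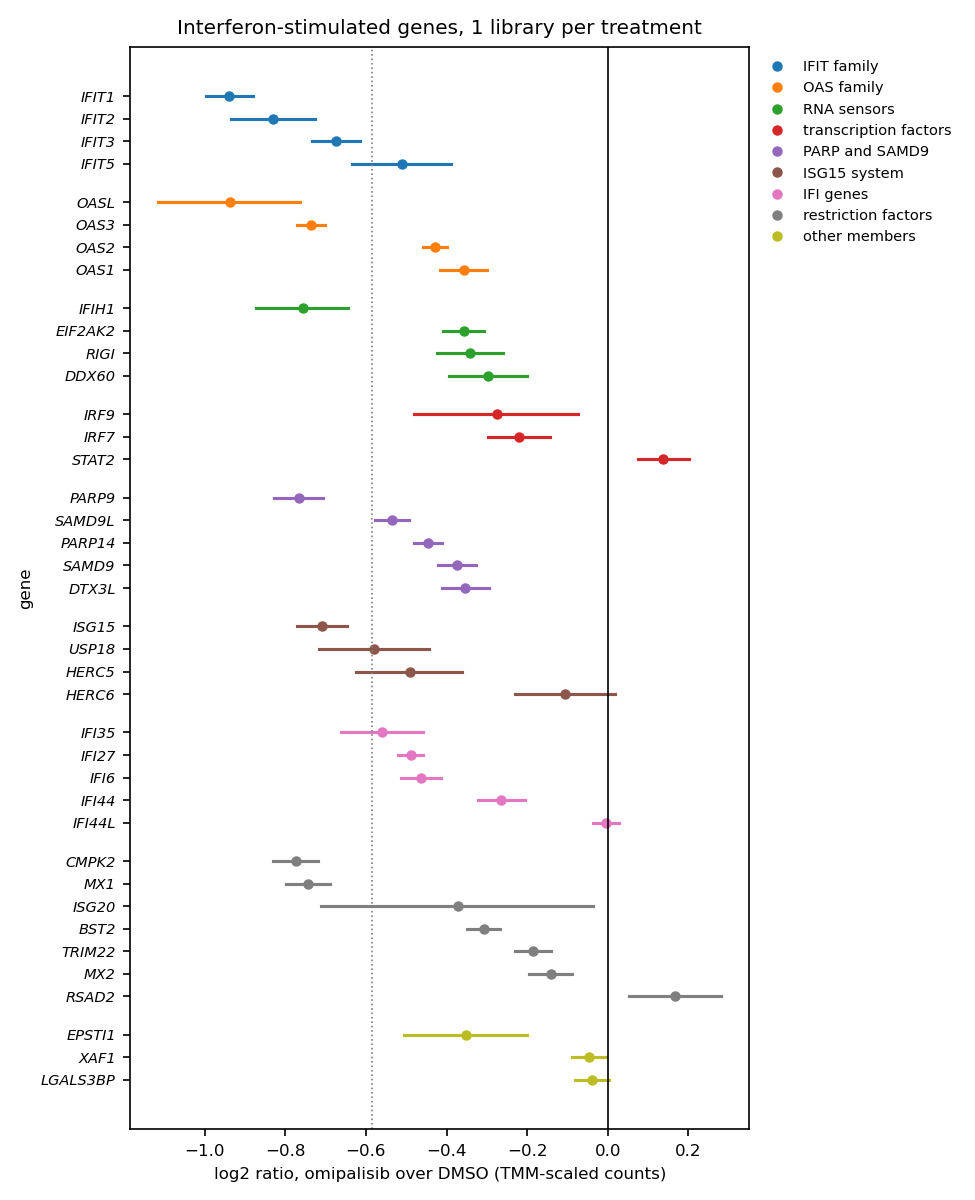
Log2 ratio of omipalisib over DMSO (horizontal axis, scaled counts) for the 39 genes, grouped by role in colour. Points are single-library ratios, bars are 95% counting intervals, the solid line marks 0 and the dotted line a 1.5-fold lower level. IFIT1 and OASL reach −0.94, and STAT2 and RSAD2 lie to the right of 0.

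With 1 library on each side there is no replicate check, no p-value can be given, and the ratios compare these libraries, not the treatments. The RNA came from whole cultures, so fewer cells expressing a gene and less of its RNA per cell cannot be told apart. Counted fragments totalled 26367832 in DMSO and 22599164 in omipalisib. The members took 1.02% of the fragments in DMSO (exact binomial interval 1.01 to 1.02) and 0.795% in omipalisib (0.792 to 0.799), 268079 and 179718 counts. Of 8 markers of the myeloid line, 7 reached 1 CPM (counts relative to library size) in both libraries, and KIT had no count in either. MPO was low, with 61 and 36 counts. Markers of plasmacytoid dendritic cells, the main interferon producers of blood, did not reach 1 CPM for any of 6 genes, with 3 and 2 counts in sum and 4 of the genes at 0 in both libraries. Each of 3 lists of 8 markers of other cells had 1 gene at 1 CPM or more in each library. Among lymphoid markers this was NKG7 (59 and 54 counts, with the T and B cell genes CD3D, CD3E and MS4A1 at 0), and the list summed to 78 and 73 counts. Among erythroid and megakaryocyte markers it was PPBP in DMSO and ITGA2B in omipalisib, with HBB and PF4 at 0 and sums of 71 and 58. Among stromal and epithelial markers it was the collagen gene COL1A2, with 2507 and 1564 counts in sums of 2547 and 1603, while COL1A1 had 0 and 4. The part of such cells in the ratios was not tested.

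The response element was read in the promoters of the members. Its core was searched as GAAA, 2 bases of any kind and GAAA again, on either strand (on the opposite strand it reads TTTC, 2 bases and TTTC), in RefSeq windows (GRCh38.p14) from 250 bases before to 50 after a start of transcription. The table holds windows for 32 members and none for IFIT2, OAS2, OASL, IRF7, USP18, MX2 and TRIM22. A match was present for 23 of these 32 members and in 27 of their 42 windows (64.3%), against 3.57% of all 35116 windows. Counted per gene, the shares were 71.9% of the members and 4.38% of 27305 genes. The lists of the other pathway genes described further on gave 58.3% of genes for other type I interferon targets and 66.7% for interferon gamma targets. The share was 27.8% for the interferons, 27.3% for nucleic acid sensing and 9.09% for brakes, with 0 of 8 genes for the receptors and JAK kinases and 0 of 4 for other STAT and IRF factors. A match is a run of letters, not a measured binding site, and a window without one says nothing of the factor.

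The 200 bases before a start are shown for 6 members, to let the arrangement of the cores be seen. Each is the most highly counted gene of its group among those with a match wholly before the start, for the 6 groups where that gene has most counts. They are read 5′ to 3′ on the strand of the gene, and capitals mark the matches to the core. The places on GRCh38 are chr14:94110536-94110735 for IFI27 (plus strand), chr12:112938274-112938473 for OAS3 (plus), chr3:122680639-122680838 for PARP14 (plus), chr19:17405631-17405830 for BST2 (minus), chr17:78979924-78980123 for LGALS3BP (minus) and chr10:89392423-89392622 for IFIT1 (plus).
IFIT1: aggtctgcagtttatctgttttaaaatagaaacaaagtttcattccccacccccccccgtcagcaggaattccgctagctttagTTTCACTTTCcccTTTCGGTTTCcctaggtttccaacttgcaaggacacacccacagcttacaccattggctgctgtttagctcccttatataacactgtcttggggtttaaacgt
OAS3: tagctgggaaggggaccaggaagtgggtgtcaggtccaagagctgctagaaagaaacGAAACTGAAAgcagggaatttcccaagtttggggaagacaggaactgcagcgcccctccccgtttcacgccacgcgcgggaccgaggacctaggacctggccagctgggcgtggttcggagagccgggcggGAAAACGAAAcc
IFI27: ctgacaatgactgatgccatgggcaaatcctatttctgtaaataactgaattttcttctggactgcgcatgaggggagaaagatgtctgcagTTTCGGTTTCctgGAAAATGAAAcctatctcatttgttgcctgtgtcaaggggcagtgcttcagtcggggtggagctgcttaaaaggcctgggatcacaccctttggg
PARP14: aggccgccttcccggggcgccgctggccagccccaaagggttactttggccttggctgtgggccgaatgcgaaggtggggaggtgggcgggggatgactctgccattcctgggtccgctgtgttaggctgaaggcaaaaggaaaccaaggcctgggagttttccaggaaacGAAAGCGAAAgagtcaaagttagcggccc
BST2: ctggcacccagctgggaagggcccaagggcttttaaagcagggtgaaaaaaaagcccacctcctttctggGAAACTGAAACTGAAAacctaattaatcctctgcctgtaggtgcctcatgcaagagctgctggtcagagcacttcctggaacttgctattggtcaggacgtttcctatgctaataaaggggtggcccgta
LGALS3BP: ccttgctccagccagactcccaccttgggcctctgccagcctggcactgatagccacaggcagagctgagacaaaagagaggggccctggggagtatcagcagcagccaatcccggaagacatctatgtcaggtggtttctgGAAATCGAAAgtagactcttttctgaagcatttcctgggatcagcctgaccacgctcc

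IFIT1, OAS3 and IFI27 show a pair of cores each. BST2 has overlapping cores that share their middle GAAA, and PARP14 and LGALS3BP have a single one. Over all members there were 41 distinct matches, overlapping ones counted separately, of which 37 lay wholly within the 200 bases before a start. Read on the strand that gives GAAA, GAAACTGAAA was the commonest form, at 11 places in 10 genes, followed by GAAACCGAAA at 7 places in 7 genes. The match shared by DTX3L and PARP9 was counted once, under DTX3L, whose start it covers. It is therefore not among the 37, though it lies wholly before a start of PARP9. PARP9 is likewise not among the 10 genes. The other element searched, TTCNNNGAA, which reads the same on both strands and is the core of the element of the interferon gamma response, was in 10 of the 42 windows (23.8%), against 7.66% of all windows. Overlaps between the 2 kinds of match were kept.

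**Figure D2:**
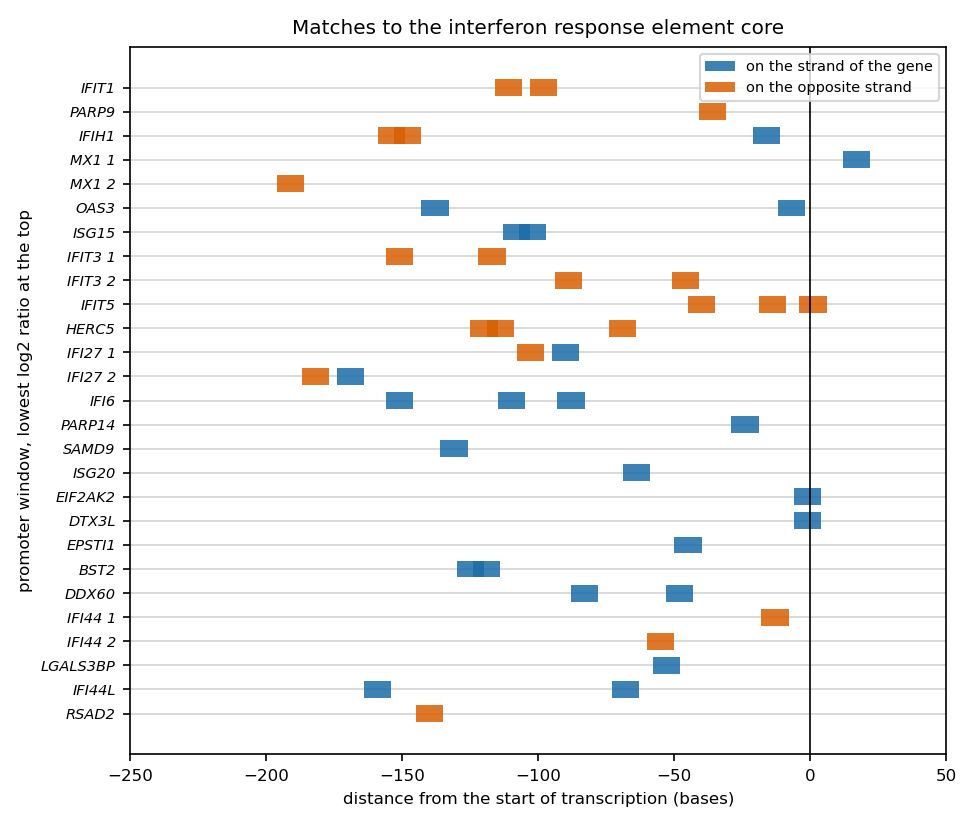
Position of each match to the response element core (bars) in the promoter windows of the 23 members that have one, in bases from the start of transcription (vertical line). Windows are ordered by the log2 ratio of the gene, lowest at the top, and numbers after a name separate its alternative starts. Matches stand in the windows of genes at both ends of the order, with IFIT1 at the top and RSAD2 at the bottom.

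Members with a match had a median log2 ratio of −0.45 (range −0.94 to 0.17) and 20 of the 23 were lower. The 9 members with a window and no match had a median of −0.34 (−0.77 to 0.14), with 7 lower. Over all 39 members 87.2% were lower, against 28.6% of genes with 20 or more counts and 39.3% of those with 310 or more. Lower calls were thus common with and without a match. Most of the 2 ranges overlapped, and no test was made of the difference.

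The IFIT family, whose products bind foreign RNA and block its translation, had the lowest median of the groups, at −0.75, and all 4 genes were lower. For scale, 28.6% of genes with 20 or more counts and 39.3% of those with 310 or more were lower. The groups are small, and no test was made on them. IFIT1, which binds RNA whose cap lacks the methyl mark of host messages, had 7543 counts in DMSO and 3488 in omipalisib. Its log2 ratio was −0.94 (−1.0 to −0.88), 1.92-fold lower. IFIT2, a partner of IFIT1 that promotes cell death, had 2262 and 1127 counts and a ratio of −0.83 (−0.94 to −0.73). IFIT3, which stabilises IFIT1, had 6533 and 3629 counts and a ratio of −0.67 (−0.73 to −0.62). IFIT5, which binds RNA with a free triphosphate end, was the least lowered, with 1391 and 865 counts and −0.51 (−0.64 to −0.39). The intervals of IFIT1 and IFIT5 did not overlap. IFIT2 overlaps another annotated gene on its strand over 8.74% of its exon bases, and fragments there are lost to the count.

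The OAS genes encode enzymes that make the second messenger for RNase L, which then cuts RNA. All 4 were lower, against 39.3% of genes with 310 or more counts, with a median of −0.58. OASL, a relative without synthetase activity that enhances sensing by RIG-I, had the fewest counts, 845 and 391, and a ratio of −0.94 (−1.11 to −0.76). OAS3, the synthetase with the largest protein, had 20033 and 10660 counts and a ratio of −0.74 (−0.77 to −0.70). OAS2 had the most counts of any member, 23460 and 15449, with a ratio of −0.43 (−0.46 to −0.40). OAS1 had 5735 and 3968 counts and a ratio of −0.36 (−0.42 to −0.30). The group thus divided, with OASL and OAS3 at least 1.5-fold lower and OAS2 and OAS1 less so, and the intervals of the pairs did not overlap.

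The sensors of foreign RNA were all lower as well, against 39.3% of genes with 310 or more counts, with a median of −0.35. IFIH1, which encodes MDA5, the sensor of long double-stranded RNA, stood apart from the rest, with 1817 and 953 counts and a ratio of −0.76 (−0.87 to −0.64). RIGI, the sensor of short triphosphate RNA, had 2941 and 2058 counts and a ratio of −0.34 (−0.42 to −0.26). The 2 sensor genes therefore differed by more than their counting error. EIF2AK2, which encodes the kinase PKR that halts translation on double-stranded RNA, had 7671 and 5310 counts and −0.36 (−0.41 to −0.31). DDX60, a helicase linked to RIG-I signalling, had 2055 and 1482 counts and −0.30 (−0.40 to −0.20).

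The transcription factors of the pathway were the least lowered group with a named role, with a median of −0.22, 2 of 3 genes lower and 1 higher. Of genes with 310 or more counts, 39.3% were lower and 29.0% higher. STAT2, the subunit that carries the activation domain of the interferon complex, had 4056 and 3957 counts, which after scaling gave a log2 ratio of 0.14 (0.07 to 0.20). IRF9, its DNA-binding partner, had 470 and 344 counts and a ratio of −0.28 (−0.48 to −0.07). Its count is uncertain, since 42.2% of its exon bases overlap another annotated gene on the same strand. IRF7, the factor that amplifies interferon alpha production, had 3139 and 2389 counts and −0.22 (−0.30 to −0.14). The ratio of STAT2 thus lay on the other side of 0 from those of IRF9 and IRF7.

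All 5 genes of the PARP and SAMD9 group were lower, against 39.3% of genes with 310 or more counts, with a median of −0.45. PARP9 and DTX3L encode a pair of proteins that work together as an ADP-ribosyltransferase and ubiquitin ligase complex. PARP9 had 6228 and 3245 counts and a ratio of −0.77 (−0.83 to −0.70), while DTX3L had 5928 and 4114 counts and −0.35 (−0.41 to −0.30). PARP14, a mono-ADP-ribosyltransferase, had 16968 and 11033 counts and −0.45 (−0.48 to −0.41). SAMD9 and SAMD9L, neighbouring genes whose products restrain growth and translation and which are mutated in inherited marrow failure, were both lower. SAMD9L had 12184 and 7453 counts and −0.54 (−0.58 to −0.49). SAMD9 had 9071 and 6205 counts and −0.37 (−0.42 to −0.33).

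Of the ISG15 system, 3 of 4 genes were lower, against 39.3% of genes with 310 or more counts. ISG15, a ubiquitin-like protein that is attached to other proteins, had 5981 and 3244 counts and a ratio of −0.71 (−0.77 to −0.65). USP18, which removes ISG15 and also dampens signalling at the interferon receptor, had 1185 and 703 counts and −0.58 (−0.72 to −0.44), just short of a 1.5-fold difference. USP18 has a near-identical copy in the genome, so its count is uncertain. HERC5, the main ligase that attaches ISG15, had 1217 and 767 counts and −0.49 (−0.63 to −0.36). HERC6, its neighbour and relative, had 1174 and 967 counts and −0.11 (−0.23 to 0.02), an interval that included 0.

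The IFI genes, named for their induction by interferon, were lower in 4 of 5, with a median of −0.46. The share lower was 39.3% over genes with 310 or more counts. IFI27, a small hydrophobic protein of mitochondria and other membranes, had 21817 and 13783 counts and a ratio of −0.49 (−0.52 to −0.46). Its relative IFI6 had 8769 and 5638 counts and −0.46 (−0.51 to −0.42), so the ratios of these relatives overlapped within their counting intervals. IFI35 had 2108 and 1268 counts and −0.56 (−0.66 to −0.46). IFI44 had 5583 and 4120 counts and −0.26 (−0.32 to −0.21). IFI44L was the most highly counted member whose interval included 0, with 15972 and 14111 counts and −0.0050 (−0.04 to 0.03). It became higher by total counts (0.04) and lower with DESeq2 size factors (−0.04).

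Restriction factors, which act on the virus itself, and their metabolic partners spread most widely. CMPK2, a mitochondrial nucleotide kinase, had 7627 and 3955 counts and −0.77 (−0.83 to −0.72). MX1, a dynamin-like GTPase that blocks influenza virus, had 7957 and 4213 counts and −0.74 (−0.80 to −0.69). Its paralogue MX2, which acts on HIV, had 6190 and 4973 counts and a ratio nearer 0, −0.14 (−0.20 to −0.09), which became −0.03 with an interval including 0 after the trend with mean level was removed. RSAD2, which encodes viperin, the enzyme that turns CTP into a chain-terminating nucleotide, had 1263 and 1257 counts, or 0.17 (0.05 to 0.28) after scaling. Between these lay BST2, the tetherin that holds budding virus at the cell surface, with 11609 and 8311 counts and −0.31 (−0.35 to −0.27). The ubiquitin ligase TRIM22 had 9111 and 7098 counts and −0.19 (−0.23 to −0.14), and it overlaps an olfactory receptor gene, OR56B1, on its strand. ISG20, an exonuclease, had only 184 and 126 counts and −0.37 (−0.71 to −0.04), the widest interval of the members.

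The remaining members were close to equal in the 2 libraries, apart from EPSTI1, which had 860 and 597 counts and −0.35 (−0.51 to −0.20). XAF1, an antagonist of the caspase inhibitor XIAP, had 9625 and 8257 counts and −0.05 (−0.09 to −0.0049), a direction that turned to 0.0014 by total counts and 0.055 after a trend with mean level was removed. LGALS3BP, a secreted galectin-binding glycoprotein, had 9517 and 8210 counts and −0.04 (−0.08 to 0.0033), an interval that included 0 and moved with the scaling (0.0094 by total counts, −0.08 with DESeq2 size factors).

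Per exon length, the members spanned a wide range of levels with a similar order in both libraries. The scale is FPKM, scaled CPM per kilobase of exon. BST2 was highest, at 407 in DMSO and 328 in omipalisib, followed by IFI6 at 402 and 291, ISG15 at 266 and 163 and IFI27 at 203 and 145. ISG20 was lowest, at 0.991 and 0.765, below IRF9 at 5.06 and 4.18. The first 9 places from the top in DMSO were held by BST2, IFI6, ISG15, IFI27, OAS2, LGALS3BP, IFI44, IFIT3 and OAS3, and the first 8 of these kept their rank in omipalisib. IFIT1 moved most among the upper ranks, from place 13 to place 19, and IFI44L went from 14 to 9. The log2 ratio bore little relation to level or length over the 39 genes, which share the same 2 libraries. Spearman's rho was −0.10 with DMSO level per length and 0.16 with exon length, and Pearson's r was −0.10 and 0.17. The DMSO count enters both the ratio and the DMSO level. With the mean CPM of the 2 libraries, rho was 0.08 and r was 0.06.

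**Figure D3:**
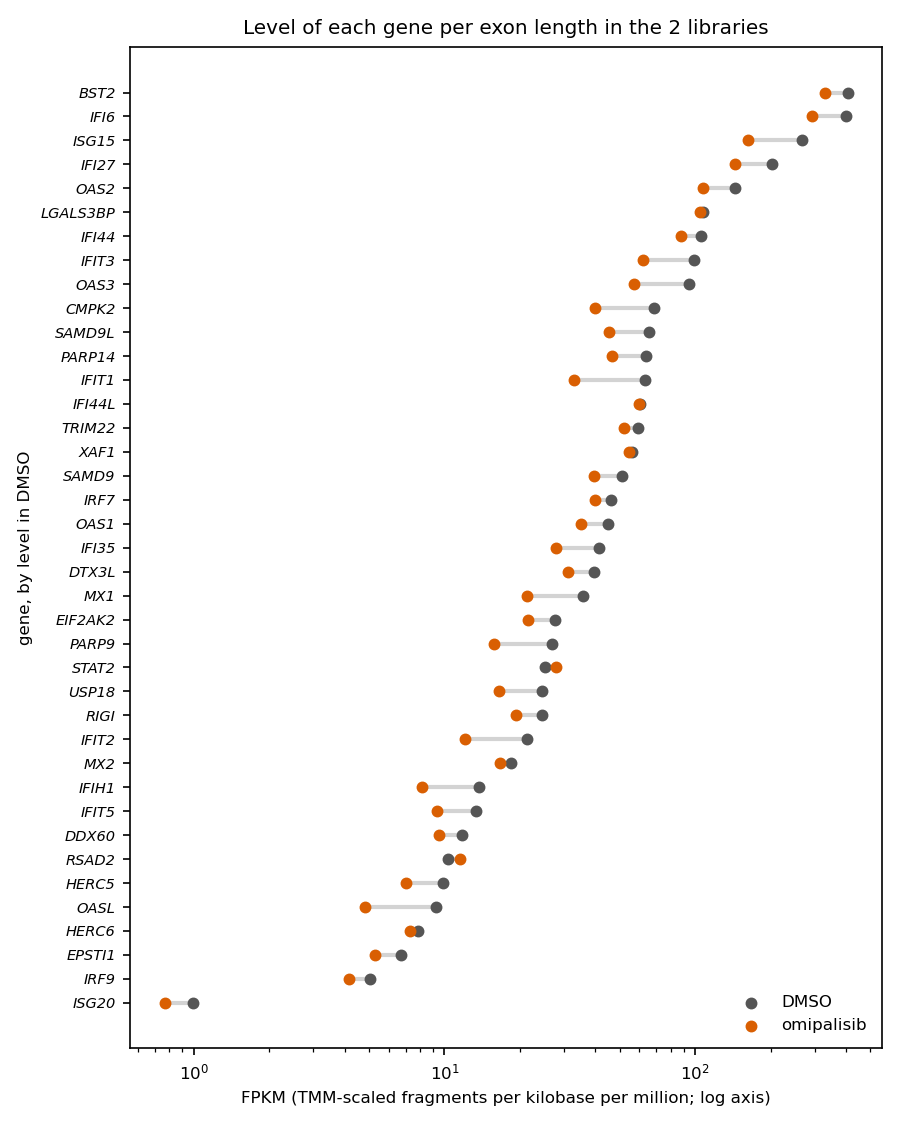
Level of each of the 39 genes in DMSO (grey) and omipalisib (orange) in FPKM on a log axis, ordered by level in DMSO. Each point is 1 library. Grey bars join the 2 libraries, and the order runs from BST2 (407 in DMSO) down to ISG20 (0.991).

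Members that lie next to each other in the genome often had different ratios. There were 10 pairs of consecutive members within 50 kb, and in all 10 the 95% interval of the difference between the 2 log2 ratios excluded 0. This interval is the exact conditional interval of the odds ratio. It does not depend on how the libraries are scaled, and it covers counting error only. No such count was made for pairs of members that are not neighbours, or for other neighbouring genes. Whether neighbouring members differ more often than other pairs of genes was therefore not tested. The largest difference was between CMPK2 and RSAD2 on chromosome 2, which overlap head to head on opposite strands by 830 bases. CMPK2 lies at 6840570 to 6866635 on the minus strand and RSAD2 at 6865806 to 6898239 on the plus strand (GRCh38). RSAD2 exceeded CMPK2 by 0.94 (0.81 to 1.07). MX1 was below MX2, its neighbour on chromosome 21, by −0.60 (−0.68 to −0.52). OAS3 was below OAS1 by −0.38 (−0.45 to −0.31), and OAS2 was above OAS3 by 0.31 (0.26 to 0.35), so the middle gene of this cluster on chromosome 12 was the lowest of the 3. IFIT5 was above IFIT1 by 0.43 (0.29 to 0.56) on chromosome 10. HERC5 was below HERC6 by −0.39 (−0.57 to −0.20). DTX3L was above PARP9 by 0.41 (0.33 to 0.50). The remaining 3 pairs, IFI44L and IFI44, SAMD9 and SAMD9L, and IFIT2 and IFIT3, differed by −0.26, −0.16 and 0.16, second gene minus first.

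**Figure D4:**
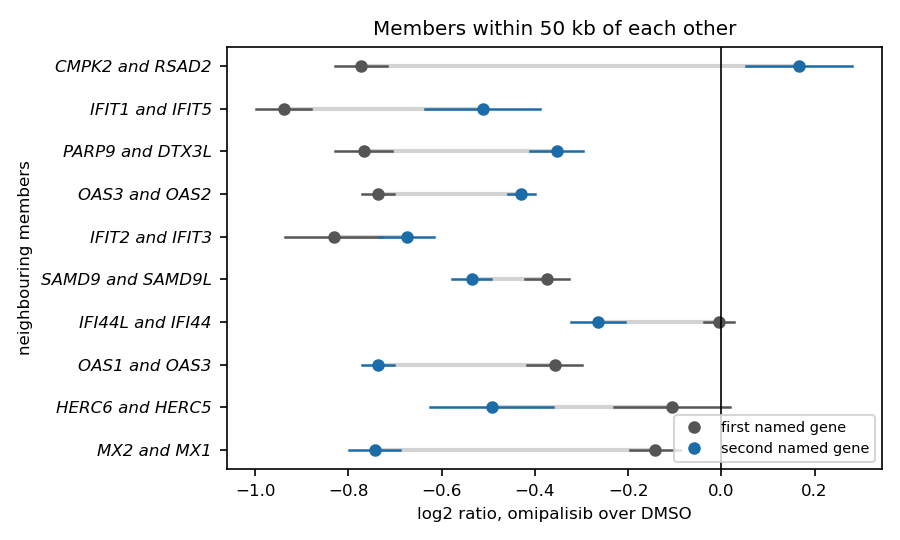
Log2 ratio of omipalisib over DMSO for the 10 pairs of members within 50 kb of each other. Grey points are the first named gene, blue points the second, and bars are 95% counting intervals. CMPK2 at −0.77 and RSAD2 at 0.17 are farthest apart.

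PARP9 and DTX3L on chromosome 3 are also arranged head to head, PARP9 at 122527924 to 122564577 on the minus strand and DTX3L at 122564338 to 122575203 on the plus strand. Their windows hold the same single match to the response element, shown here with 10 bases on either side, on the strand of DTX3L, at chr3:122564322-122564351.
DTX3L and PARP9: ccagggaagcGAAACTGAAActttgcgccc
The match covers the start of DTX3L, from base −6, and begins at base −41 from one of the starts of PARP9 in the table. The windows of CMPK2, at 3 starts, held no match, and that of RSAD2 held one at base −145 of 1 of its 2 starts. This start of RSAD2, at chr2:6877777, lies beyond the end of CMPK2 at 6866635, outside the bases the 2 genes share.

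Upstream of these genes, the interferons were mostly without counts and the receptor and kinase genes had ratios near or above 0. Of 22 interferon genes, 21 had no count in either library, which allows up to 3 counts, or 0.116 CPM in DMSO and 0.131 CPM in omipalisib. The interferon alpha genes are near-identical copies, so fragments that align to several of them may be missing from these counts. IFNB1, interferon beta, had 38 and 19 counts and a ratio of −0.81 (−1.70 to 0.0041), with an interval that just included 0. Among the interferon receptor and JAK genes 8 were measured, with a median ratio of 0.18 (0.11 over those with at least 100 counts). Of these 8, 4 were higher and 0 lower, against 26.1% and 28.6% of all 15660 genes with 20 or more counts. IFNAR1 had 2049 and 1907 counts and 0.07 (−0.02 to 0.16), and IFNAR2 had 581 and 485 counts and −0.09 (−0.26 to 0.09). IFNAR2 and the receptor gene IL10RB overlap a readthrough gene, over 44.2% and 38.3% of their exon bases, and are uncertain. The kinase genes JAK1 and TYK2 were higher, at 0.26 (0.18 to 0.33) and 0.25 (0.19 to 0.31). IFNGR2, of the interferon gamma receptor, had 0.46 (0.32 to 0.60), and JAK2 had −0.16 (−0.32 to 0.0047).

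The 7 other STAT and IRF factors had a median of −0.09, with 4 lower and 1 higher, against 28.6% and 26.1% of all genes. IRF1, a factor of the interferon gamma response, had −0.21 (−0.33 to −0.10). IRF3, which switches on IFNB1 after sensing, was the higher one at 0.26 (0.17 to 0.35), and IRF5 had 0.03 (−0.11 to 0.16). The 13 measured genes of nucleic acid sensing had a median of −0.17 (−0.08 over those with at least 100 counts). Of these 13, 7 were lower and 2 higher, against the same shares of each set of genes. IFI16, a DNA sensor, had −0.46 (−0.51 to −0.41), and the kinase TBK1 had −0.37 (−0.47 to −0.27). The endosomal RNA sensor TLR8 had 31 and 116 counts and a ratio of 2.06 (1.5 to 2.70). Another endosomal RNA sensor, TLR3, had the lowest ratio of the list, with 60 and 20 counts and −1.39 (−2.22 to −0.66). The DNA sensor AIM2 had 0.22 (−0.33 to 0.77).

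The list of brakes on the response and of enzymes that dispose of nucleic acids had 10 measured genes. Of these, 5 were lower and none higher, against 28.6% and 26.1% of all genes. Their median was −0.20 (−0.11 over genes with at least 100 counts). ADAR, which edits double-stranded RNA and so hides it from MDA5, had 32193 and 23647 counts and −0.27 (−0.30 to −0.25). RNASEH2B, a subunit of ribonuclease H2, and SAMHD1, which breaks down nucleotides, had −0.45 (−0.59 to −0.32) and −0.37 (−0.41 to −0.33). SOCS1, an inhibitor of JAK kinases, had 17 and 10 counts and −0.56 (−1.88 to 0.62), while its relative SOCS3 had 0.27 (−0.21 to 0.74) and the phosphatase PTPN2 0.05 (−0.05 to 0.15). TREX1 had no count, and all of its exon bases overlap ATRIP on the same strand.

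Targets of type I interferon outside the 39 were also mostly lower, with a median nearer 0. This list had a median of −0.25 over 32 measured genes, of which 23 were lower, 0 higher and 6 at least 1.5-fold lower. Over all genes, 28.6% were lower, 26.1% higher and 4.76% at least 1.5-fold lower. IFITM1, a membrane protein that blocks virus entry, had 376 and 187 counts and −0.83 (−1.09 to −0.58), but 37.5% of its exon bases overlap its neighbour IFITM2. The aminopeptidase gene LAP3 had 5019 and 2719 counts and −0.71 (−0.78 to −0.64). At the other end, RNF213 had 0.01 (−0.02 to 0.04) and TMEM140 had 0.02 (−0.42 to 0.45). The 12 measured interferon gamma targets had a median of −0.28 (−0.10 over those with at least 100 counts). Of these 12, 6 were lower and 3 higher, against 28.6% and 26.1% of all genes. CXCL10, a chemokine for T cells, had 38 and 3 counts and a ratio of −3.29 (−5.83 to −1.83). GBP3 and WARS1 had −0.51 (−0.80 to −0.22) and −0.30 (−0.36 to −0.25), and GBP2 and ICAM1 were higher at 1.06 (0.75 to 1.38) and 0.44 (0.29 to 0.59). No test of the difference between the lists was possible with 1 library per treatment.

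**Figure D5:**
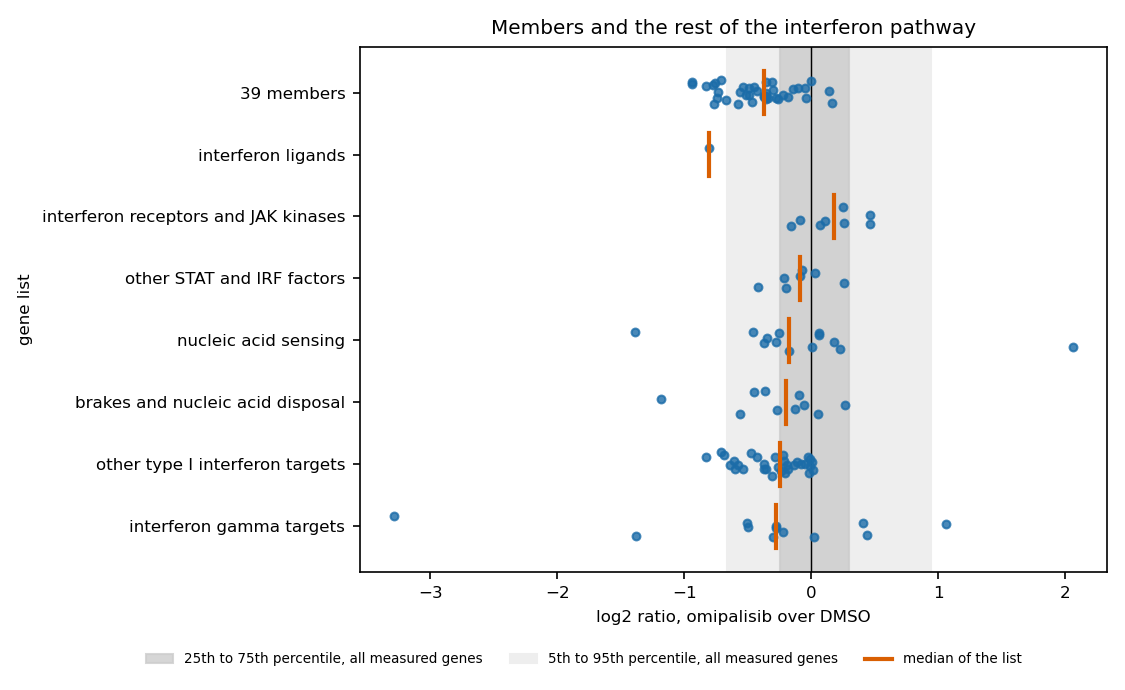
Log2 ratio of omipalisib over DMSO for the 39 members and for the measured genes of each other list of the interferon pathway (points), with the median of each list (orange). Grey bands are the 25th to 75th and 5th to 95th percentiles of all 15660 measured genes. The median is −0.37 for the members and 0.18 for the receptors and JAK kinases.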

How the data were processed

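Strand-specific libraries of total RNA from 2 cultures, 1 per treatment, were sequenced. The authors deposited raw counts per gene. Per the file headers, featureCounts 2.0.1 counted read pairs aligned at both ends over the exons of each gene, with the reverse-strand setting (2). The aligner is not given in the sources used here. Per the submitters' processing notes the builds were hg19 and GRCh37, but 58513 of the 58516 genes shared with GENCODE release 29 lie at its GRCh38 positions, so coordinates are given as GRCh38. By the tool's default, fragments with several alignments are not counted, and genes that overlap on 1 strand lose the fragments they share.

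Counts were scaled by TMM (edgeR 4.0.16, R 4.3.3, with factors of 0.983 for DMSO and 1.02 for omipalisib), and 0.5 was added before taking log2 ratios. Each interval is an exact Clopper-Pearson 95% interval (scipy 1.17.1) of the part of a gene's 2 counts that came from omipalisib. Without molecular identifiers, reads are not independent molecules, so it covers counting error only. No model or test was used. Medians cover genes with 20 or more counts over both libraries. The calculation was tested on simulated data that held counting error only. That test could not show how the intervals behave with duplicate reads or differences between cultures.

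The members, lists and rules were chosen with earlier results of these data known. All 39 members are named, and of each pathway list the 2 lowest and 2 highest genes with at least 100 counts, plus 11 set genes whatever their values; 1 gene of this rule is not reported here. IL10RB, TREX1, TLR3 and the shared PARP9 and DTX3L match were picked after their values were seen, as was the background of genes with 310 or more counts. A planned comparison of protein sequences was not run. Alternatives were 3 other scalings (total counts, DESeq2 1.42.0 size factors, upper quartile), other count minimums, 2 added to each count, removal of a trend with length or mean level, removal of overlapping members and a 2-fold size rule.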

Additional observations from a re-analysis of the deposited data

How the results depend on the processing

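Over the 9 alternatives that give a ratio for single genes, 31 of the 34 lower members stayed lower wherever they were kept, and STAT2 and RSAD2 stayed higher in all. MX2, ISG20 and XAF1 lost their lower call under at least 1 alternative. HERC6, IFI44L and LGALS3BP became lower with DESeq2 size factors, and IFI44L, LGALS3BP and XAF1 became higher with the mean level trend removed. LGALS3BP was also lower with upper quartile scaling, and IFI44L with the length trend removed. With the mean level trend removed, 25 of the 39 ratios moved by at least their counting error, besides XAF1, which changed sign. By total counts 11 did, again besides XAF1. The median of the members ran from −0.43 to −0.33, and the number lower from 31 to 37. The 31 is the count after the overlapping members IFIT2, IRF9 and TRIM22, all lower in the main run, were removed. Where all 39 were kept, the smallest number was 32. The median over all genes moved by under 0.1 in log2 under each scaling (−0.04 to 0.05).

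With the trend of the ratio with mean level removed, 5 members were higher. The medians were then −0.66 for the IFIT family, −0.50 for OAS, −0.25 for RNA sensors, −0.12 for transcription factors, −0.36 for PARP and SAMD9, −0.36 for IFI genes, −0.21 for restriction factors and 0.055 for the remaining members (XAF1 at 0.055). With total counts they were −0.53 for OAS, −0.40 for PARP and SAMD9, −0.41 for IFI genes and 0.0014 for the remaining members (XAF1 at 0.0014). With the length trend removed, PARP and SAMD9 had −0.51. Without overlapping members, the transcription factors had −0.041, since IRF9 dropped out. With a 2-fold rule, 0 members were lower. No paired analysis was possible because each treatment has 1 library. Of the 39 members, depth limits ISG20 most, and among the other pathway genes CXCL10 and SOCS1 had wider intervals. With a minimum of 100 counts, the median moved from −0.28 to −0.10 for interferon gamma targets, from −0.17 to −0.08 for nucleic acid sensing, from −0.20 to −0.11 for brakes and from 0.18 to 0.11 for receptors and JAK kinases.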
